A study of Mus musculus with 9 samples.

Results

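Chromosome 11 was described here through its methylated tiles in mouse fibroblasts and in embryos reconstructed from fibroblast nuclei. A tile is a stretch of 100 bp, and a tile was taken as methylated where it had at least 10 CpG calls in each of 8 samples and a mean level of 60% or more in the fibroblasts. Of 151361 such tiles in the series, 6359 lie on chromosome 11 and 133513 on the other 18 autosomes. The chromosome was chosen by the measured difference between NT embryos and fibroblasts, which was the lowest of the 19 autosomes over its methylated tiles. That difference is therefore given as a description and carries no test.

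The assay was reduced representation bisulfite sequencing (RRBS), which reads CpGs near MspI sites after conversion of unmethylated cytosines. The NT embryos (label NTZy14) came from nuclear transfer, in which a donor fibroblast nucleus replaces the nucleus of a C57/B6 oocyte and the egg is then activated with strontium. Their 4 samples comprise samples 1 and 2 of strain label BDF1-CAST and samples 3 and 4 of strain label X1. The fibroblasts (label TT) were tail-tip cells of adult male mice, passaged in culture, with the same strain labels for samples 1 to 4. Fibroblast sample 1 was sequenced in 2 libraries, which were summed. The sources used here do not give what the digits of NTZy14 and the name X1 stand for, how many embryos made up a sample, or whether samples came from separate animals.

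In somatic mammalian cells most CpGs are methylated, while CpG islands, the CpG-dense stretches over many gene starts, stay free of methylation. After fertilization the genome is broadly demethylated in the early embryo, and a transferred somatic nucleus meets the same egg cytoplasm. Chromosome 11 of the mouse is known as a gene-rich chromosome and carries the Hoxb, keratin and several Wnt genes.

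The 9 libraries held 25239364 to 41466097 calls. On methylated tiles of chromosome 11 the median number of calls per tile was 29 to 40 in NT embryo samples and 46 to 101 in fibroblast samples. These call numbers set the precision of single tiles, and several calls may stem from 1 molecule.

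Gene starts were placed on the chromosome through their sequence. Promoter windows from RefSeq (build GRCm38.p6, 250 bases before to 50 after a start) were matched to the measured CpG positions (build mm9) by the spacing of their CpGs alone. Of 2289 windows of 1865 genes on chromosome 11, 1466 held at least 6 CpGs and 793 windows of 708 genes found 1 clear place. None of these lay out of the RefSeq order, and 789 of 792 neighbouring pairs had the same spacing in both builds. Placed promoters of 12 genes overlapped methylated tiles. The 5 printed here were chosen after their values were seen: Coro6 for the lowest difference, Hormad2, Sox30 and Hsf5 for their roles in germ cells, and 4933428G20Rik for the most CpGs. Each line gives the 250 bases before the start, 5′ to 3′ on the strand of the gene, with CpGs in capitals.
Coro6: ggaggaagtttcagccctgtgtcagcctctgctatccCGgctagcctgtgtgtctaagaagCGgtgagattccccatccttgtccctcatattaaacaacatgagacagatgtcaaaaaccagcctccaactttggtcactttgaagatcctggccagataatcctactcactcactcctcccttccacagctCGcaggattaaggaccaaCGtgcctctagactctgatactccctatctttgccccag
Hormad2: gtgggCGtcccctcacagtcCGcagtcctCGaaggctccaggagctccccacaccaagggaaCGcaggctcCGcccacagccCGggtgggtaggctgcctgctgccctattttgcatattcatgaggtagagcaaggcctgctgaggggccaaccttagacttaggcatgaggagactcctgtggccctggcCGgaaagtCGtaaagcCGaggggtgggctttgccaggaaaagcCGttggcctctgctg
Sox30: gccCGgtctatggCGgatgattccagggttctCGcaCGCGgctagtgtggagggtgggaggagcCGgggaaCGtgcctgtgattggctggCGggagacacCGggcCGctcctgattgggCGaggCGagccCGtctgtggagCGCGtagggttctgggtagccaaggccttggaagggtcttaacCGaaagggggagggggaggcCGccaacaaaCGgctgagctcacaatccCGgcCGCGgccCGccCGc
Hsf5: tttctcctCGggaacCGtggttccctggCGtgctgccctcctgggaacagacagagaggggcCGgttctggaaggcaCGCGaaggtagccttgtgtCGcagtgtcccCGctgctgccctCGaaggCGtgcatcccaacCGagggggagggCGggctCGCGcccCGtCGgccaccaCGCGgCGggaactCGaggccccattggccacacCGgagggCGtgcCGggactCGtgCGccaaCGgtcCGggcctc
4933428G20Rik: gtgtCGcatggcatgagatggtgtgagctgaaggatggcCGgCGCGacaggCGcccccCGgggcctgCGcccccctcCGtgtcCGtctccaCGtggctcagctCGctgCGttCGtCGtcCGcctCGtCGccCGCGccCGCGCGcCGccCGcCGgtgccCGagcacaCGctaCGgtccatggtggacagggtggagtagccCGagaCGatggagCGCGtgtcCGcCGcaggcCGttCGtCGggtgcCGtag

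Tiles follow fixed steps of 100 bp on mm9, so the methylated tiles described below need not lie within the printed stretches. At Coro6 and Hormad2 the tile shares only bases at the end of the printed stretch. CpG numbers of tiles and of printed stretches thus partly count different CpGs. The printed stretches hold 4 CpGs at Coro6, 10 CpGs at Hormad2, 23 CpGs at Sox30, 27 CpGs at Hsf5 and 38 CpGs at 4933428G20Rik. They lie at chr11:77463661-77463910 on the plus strand for Coro6, chr11:4441083-4441332 on the minus strand for Hormad2, chr11:45980060-45980309 on the plus strand for Sox30, chr11:87616914-87617163 on the plus strand for Hsf5 and chr11:97500341-97500590 on the minus strand for 4933428G20Rik (GRCm38.p6).

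Methylated tiles of chromosome 11 were at a lower level in NT embryos than in fibroblasts, and every NT embryo sample lay below every fibroblast sample. The mean level over the 6359 tiles was 61.0, 60.7, 71.4 and 66.9% in NT embryo samples 1 to 4, against 81.4, 79.7, 84.2 and 83.2% in fibroblast samples 1 to 4. The X1 samples were the higher ones at both stages. The means were 65.0% ± 5.12 in NT embryos and 82.1% ± 1.96 in fibroblasts (SD, n = 4 each), a difference of -17.1 points. Within strains it was -14.5 points in X1 and -19.7 points in BDF1-CAST, with 2 samples in each stage. On the other autosomes, weighted to the same CpG densities and fibroblast levels, the means were 70.3% ± 4.41 in NT embryos and 82.2% ± 1.94 in fibroblasts, a difference of -11.9 points.

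**Figure D1:**
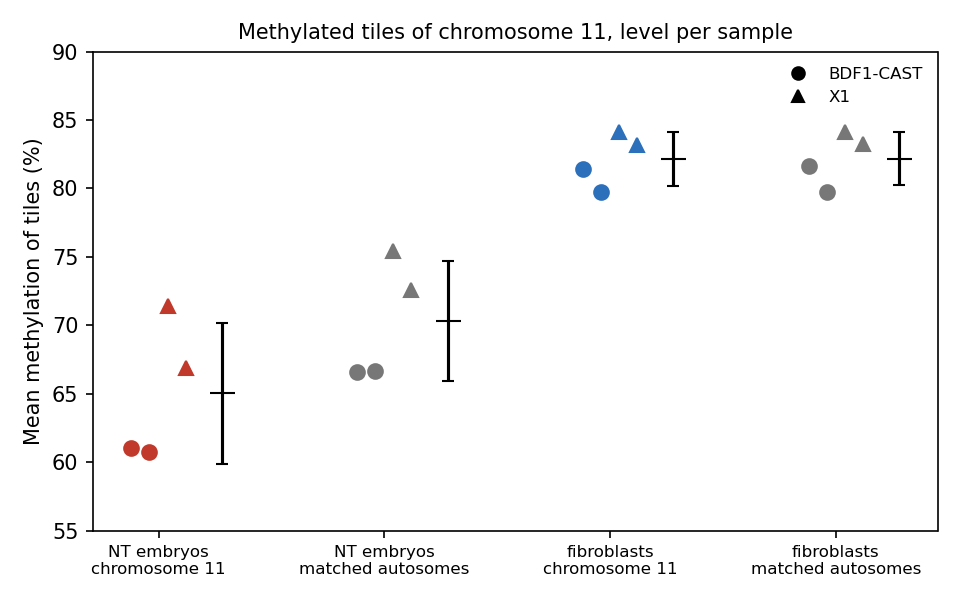
Mean methylation (%) of the methylated tiles of chromosome 11 and of matched tiles on the other autosomes, with 1 point per sample (circles BDF1-CAST, triangles X1) and the mean ± SD of 4 samples beside them. In NT embryos chromosome 11 lies at 60.7 to 71.4%, below the matched autosomes in the same sample, and in fibroblasts both lie at 79.7 to 84.2%, as the matching sets them.

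In NT embryos chromosome 11 lay below the matched autosomal tiles in each sample. The matching sets the fibroblast levels nearly equal by construction, so the gap in fibroblasts is a check of the weights and not a result. Chromosome 11 minus matched autosomes was -5.58, -5.92, -4.01 and -5.65 points in NT embryo samples 1 to 4, against -0.226, 0.000543, 0.0391 and -0.0376 points in fibroblast samples 1 to 4. The means were -5.29 points ± 0.864 in NT embryos and -0.0560 points ± 0.118 in fibroblasts (SD, n = 4 each). The difference between stages on chromosome 11 minus that of its matches was -5.23 points ± 0.864. This was the lowest of the 19 autosomes in each NT embryo sample. Chromosome 19 came next with -3.32 points and chromosome 17 after it with -1.87 points, while chromosome 3 was highest with 2.22 points.

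The 3 chromosomes at that end of the order are also the ones richest in CpG-dense unmethylated tiles. Such a tile, called an island tile here, had under 20% methylation in fibroblasts and a CpG density of 6 or more, where density is the authors' mean number of CpGs in a window reaching 50 bp to each side of a CpG. Island tiles numbered 50.1 per Mb on chromosome 11, 43.9 on chromosome 19 and 37.4 on chromosome 17, against 20.9 on chromosome 3. This measure was chosen after the data had been seen. When the island tiles in the surrounding 1 Mb were matched as well, chromosome 11 minus its matches became -1.89 points ± 0.616, and with the distance to the nearest island tile matched instead it was -2.95 points ± 0.686. With both matched it was -1.65 points ± 0.552 (SD, n = 4 NT embryo samples).

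**Figure D2:**
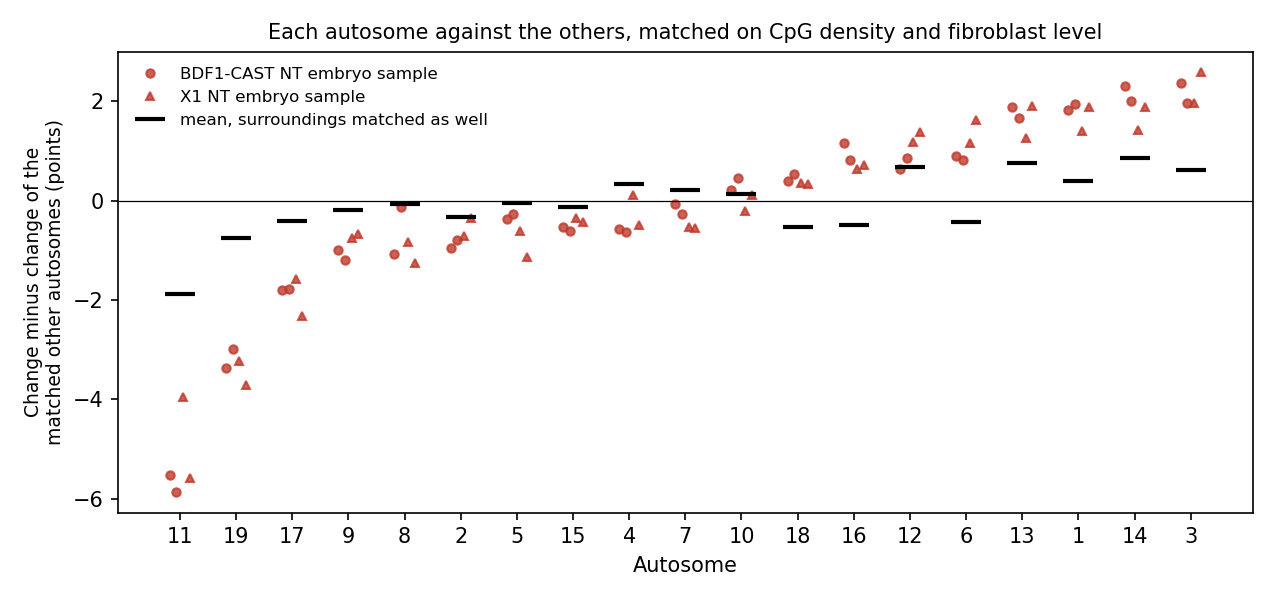
Difference between NT embryos and fibroblasts on each autosome minus that of the other autosomes matched on CpG density and fibroblast level, in points, for each NT embryo sample (circles BDF1-CAST, triangles X1). Black bars give the mean when island tiles per Mb are matched as well. Chromosome 11 is lowest in every sample, between -5.86 and -3.95 points, and its bar stands at -1.89 points.

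Along the chromosome the level in NT embryos varied between 1 Mb bins. The limit of 60% applies to fibroblasts alone and narrows their range over bins, so the widths of the ranges at the 2 stages are not compared. All 119 bins held 20 to 109 methylated tiles, with a median of 51. Over bins, the mean level ran from 47.2 to 80.9% in NT embryos, with an SD of 9.14 points over bins, and from 77.1 to 85.9% in fibroblasts, with an SD of 1.89 points. The difference between NT embryos and fibroblasts ran from -35.2 to -3.32 points with a median of -14.8, and no bin was higher in NT embryos. In 104 of the 119 bins every NT embryo sample lay below every fibroblast sample. This share was not computed for bins of the other autosomes, so nothing is read from it. The difference reached -20 points or beyond in 45 bins, which is 37.8% of the bins of chromosome 11, against 14.2% of 2283 bins on the other autosomes. In 30 bins it was under 10 points in size.

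**Figure D3:**
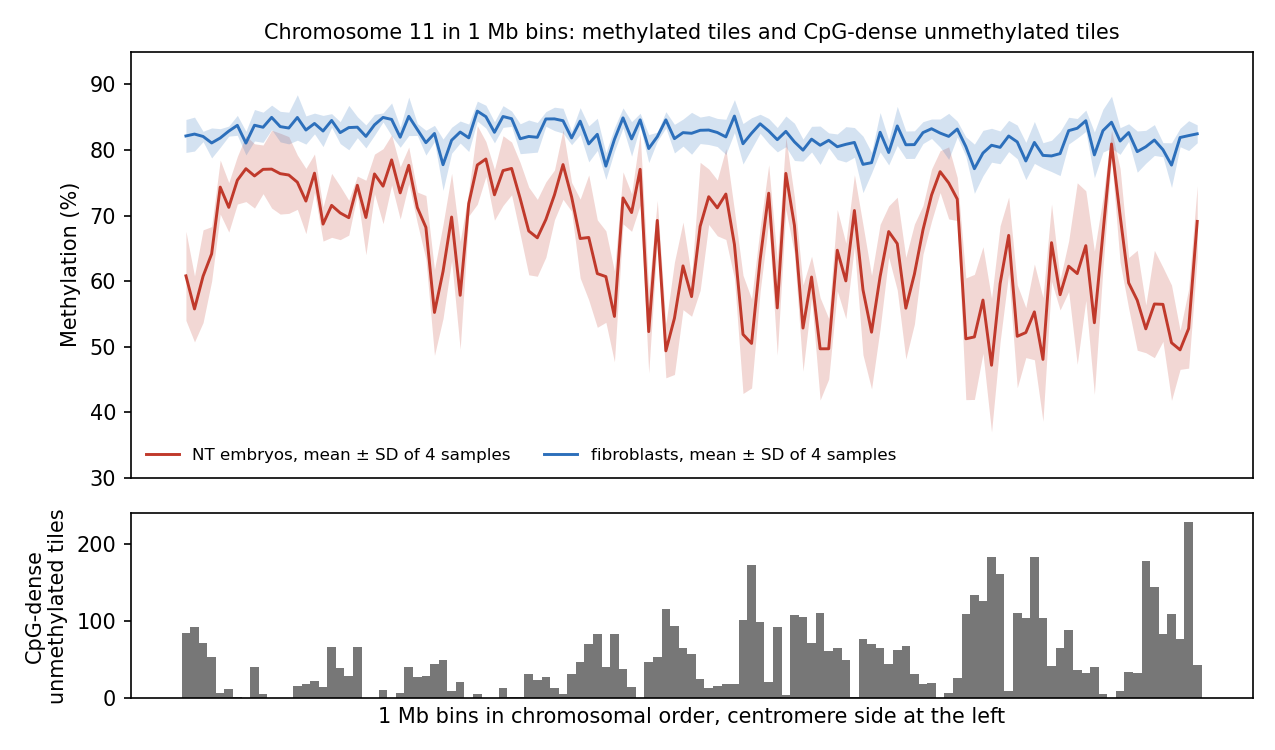
Upper panel, mean methylation (%) of methylated tiles in the 119 bins of 1 Mb in chromosomal order for NT embryos (red) and fibroblasts (blue), with bands of ± 1 SD over 4 samples. Lower panel, number of island tiles in the same bins. The NT embryo line spans 47.2 to 80.9% and is low where island tiles are many, and the fibroblast line, held above 60% by the choice of tiles, lies between 77.1 and 85.9%.

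The pattern along the chromosome was shared by the samples. Between same-numbered NT embryo and fibroblast samples, which share no library with another pair, the differences over the 119 bins correlated from pair to pair with Pearson's r from 0.821 to 0.891. Between the strains r was 0.896 over the same bins. Neighbouring bins resembled each other at r = 0.506, bins 2 apart at 0.359, bins 3 apart at 0.2503, bins 5 apart at 0.0880 and bins 10 apart at 0.240. These values describe bins that share their libraries and their sequence in every sample, and they carry no p-value.

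The 6 bins with the lowest differences all lie from 59 Mb onwards, away from the centromere. The lowest was chr11:59000000-59999999 (positions of bins, tiles and runs are on mm9), where 35 tiles averaged 48.1, 47.8, 55.4 and 46.2% in NT embryo samples 1 to 4, against 84.0, 83.7, 86.4 and 84.2% in fibroblast samples 1 to 4. The groups were far apart, with a difference of -35.2 points. Placed promoters of this bin include Wnt3a and Wnt9a, which encode secreted Wnt ligands, Arf1, a small GTPase of Golgi transport, and Guk1, a guanylate kinase. In chr11:97000000-97999999, 88 tiles averaged 38.6, 39.1, 59.6 and 51.5% in NT embryo samples 1 to 4, against 79.4, 77.8, 83.5 and 82.2% in fibroblast samples 1 to 4, a difference of -33.5 points. The BDF1-CAST embryos were the low ones in this bin. It holds the placed promoters of Kpnb1, the nuclear import receptor importin beta, Lasp1, an actin-binding protein, and Psmb3, a proteasome subunit. In chr11:119000000-119999999, 74 tiles averaged 47.6, 47.5, 53.8 and 49.2% in NT embryo samples 1 to 4, against 81.0, 80.4, 83.2 and 83.0% in fibroblast samples 1 to 4, a difference of -32.4 points. The NT embryo samples lay close together there, and the placed promoters include the lysosomal enzymes Gaa and Sgsh and the exon junction protein Eif4a3.

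The other three of these bins were alike. In chr11:69000000-69999999, 74 tiles averaged 50.5% ± 6.79 in NT embryos and 82.5% ± 2.37 in fibroblasts (SD, n = 4 each), a difference of -32.0 points. This bin holds 19 placed promoters, among them Polr2a, the largest subunit of RNA polymerase II, Eif4a1, a helicase of translation initiation, and Dlg4 and Nlgn2, proteins of the synapse. In chr11:78000000-78999999, 49 tiles averaged 49.7% ± 4.62 in NT embryos and 81.5% ± 1.13 in fibroblasts, a difference of -31.8 points, near the placed promoters of Supt6, a transcription elongation factor, and Aldoc, a glycolytic aldolase. In chr11:103000000-103999999, 56 tiles averaged 48.1% ± 9.42 in NT embryos and 79.2% ± 1.93 in fibroblasts, a difference of -31.1 points. Wnt3 and Wnt9b, a second pair of Wnt ligand genes, and Nsf, an ATPase of membrane fusion, have placed promoters there. The 6 bins held 61 to 183 island tiles each.

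The 6 bins with the smallest differences held few island tiles, 6 at most, and few placed promoters. In chr11:111000000-111999999, 34 tiles averaged 78.1, 80.6, 82.5 and 82.5% in NT embryo samples 1 to 4, against 83.1, 79.1, 87.6 and 87.1% in fibroblast samples 1 to 4. The groups overlapped, with a difference of -3.32 points. In chr11:10000000-10999999, 68 tiles averaged 72.3, 73.9, 83.3 and 79.1% in NT embryo samples 1 to 4, against 81.3, 78.5, 81.8 and 82.7% in fibroblast samples 1 to 4, a difference of -3.90 points. These groups overlapped too, and neither bin held an island tile or a placed promoter. The bins at 91, 27, 73 and 12 Mb had differences of -5.88, -6.17, -6.40 and -6.41 points. The bin at 12 Mb holds the placed promoter of Cobl, an actin nucleator, and that at 73 Mb those of Shpk, a sugar kinase, and Spata22, a meiosis gene.

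Bins of like difference lay in stretches. In 8 stretches of 3 or more consecutive bins each bin differed by -20 points or beyond. The longest runs over 8 Mb from 113 to 121 Mb, where 695 tiles averaged 54.6% ± 5.53 in NT embryos and 80.9% ± 2.13 in fibroblasts, a difference of -26.3 points. From 94 to 99 Mb 306 tiles averaged 52.5% ± 9.16 in NT embryos and 80.03% ± 2.52 in fibroblasts, and from 100 to 104 Mb 278 tiles averaged 52.1% ± 6.94 in NT embryos and 80.3% ± 2.59 in fibroblasts. Their differences were -27.5 and -28.1 points, and these stretches held 142.8 and 125.75 island tiles per Mb. The other 5 lie at 3 to 6, 59 to 63, 68 to 71, 75 to 79 and 105 to 108 Mb, with differences from -27.9 to -21.5 points. In 3 stretches each bin differed by less than 10 points in size. They lie at 9 to 17, 27 to 30 and 37 to 43 Mb, with differences of -7.18, -7.48 and -8.12 points and 7.88, 15.7 and 3.33 island tiles per Mb. All stretches of small difference thus lie in the part of the chromosome nearer the centromere.

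The difference of a bin was closely related to the island tiles in it and hardly to the CpG density of the methylated tiles themselves. Over the 119 bins, Spearman's rho between the difference and the number of island tiles was -0.837, with Pearson's r of -0.780. In each same-numbered pair of samples rho lay between -0.802 and -0.752. Taken by stage, rho with the island tiles was -0.835 for the level in NT embryos and -0.511 for the level in fibroblasts. Between the difference and the mean CpG density of the bin's methylated tiles rho was 0.0383 and r 0.00617. The number of placed promoters gave a rho of -0.808 with the difference. Placing needs at least 6 measured CpGs in a window, so this number is not independent of the island tiles. The median calls in NT embryos gave a rho of 0.153 with the difference. Over 2283 bins of the other autosomes the difference gave a rho of -0.741 with island tiles and 0.192 with density. The 13 bins of chromosome 11 with no island tile differed by -12.4 to -3.32 points, and the 19 bins with over 100 by -35.2 to -12.7 points.

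**Figure D4:**
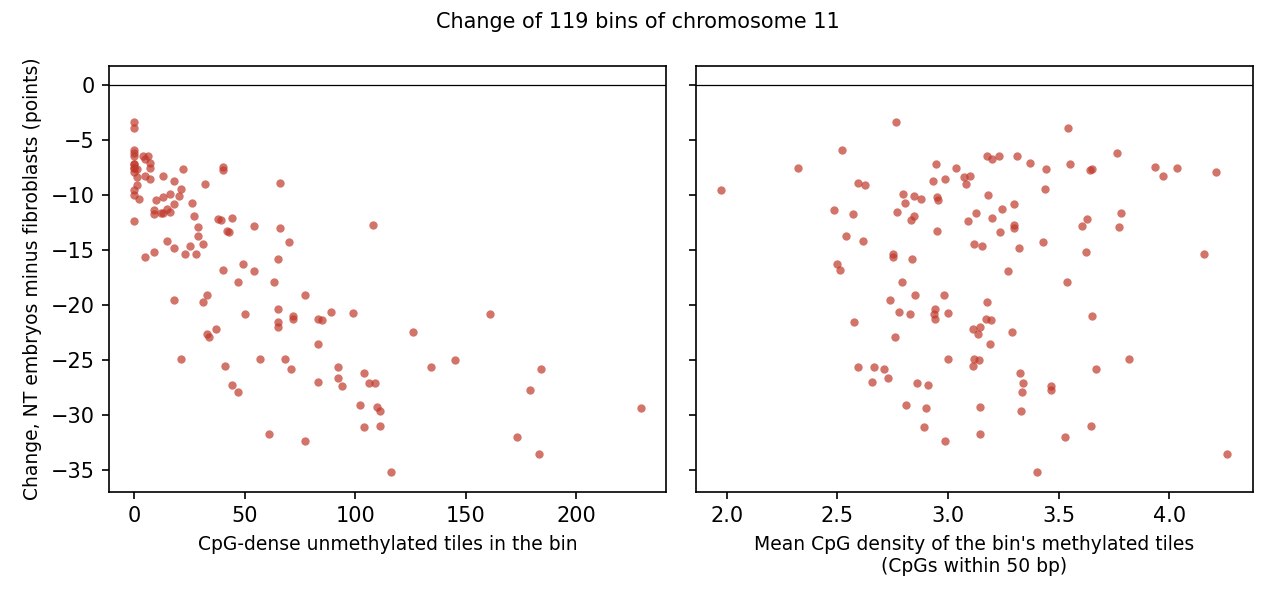
Difference between NT embryos and fibroblasts (points) in the 119 bins of 1 Mb against the number of island tiles in the bin (left) and the mean CpG density of its methylated tiles (right), with 1 point per bin. Differences are lower in bins with more island tiles (rho -0.837) and show no order along CpG density (rho 0.0383).

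Single tiles sorted by their surroundings showed the same gradient on chromosome 11 and elsewhere. In bins with no island tile, 651 tiles of chromosome 11 averaged 76.3% in NT embryos and 83.5% in fibroblasts, a difference of -7.21 points ± 4.33 (SD, n = 4 NT embryo samples). Through bins with 1 to 10, 11 to 25, 26 to 50 and 51 to 100 island tiles the differences were -8.89, -11.8, -16.1 and -21.8 points. In bins with over 100, 1288 tiles averaged 53.1% in NT embryos and 80.6% in fibroblasts, a difference of -27.6 points ± 7.02. On the other autosomes the same 6 classes differed by -6.77, -7.49, -9.88, -13.5, -19.8 and -25.2 points. Within samples, chromosome 11 minus the other autosomes averaged -0.444 points ± 0.385 in the class with no island tile, -1.94 points ± 0.249 in that with 51 to 100 and -2.39 points ± 2.02 in that with over 100 (SD, n = 4 NT embryo samples). Chromosome 11 was the lower one in 4 of 4 samples in each class but the richest, where it was lower in 3 of 4. The tiles were spread differently over the classes: 20.3% of the methylated tiles of chromosome 11 lay in bins with over 100 island tiles, against 4.35% of those on the other autosomes. The median number of calls in NT embryos was 33 or 34 in every class on chromosome 11.

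Distance to the nearest island tile ordered the tiles in the same way. Within 2 kb of one, 187 tiles of chromosome 11 averaged 45.4% in NT embryos and 78.0% in fibroblasts, a difference of -32.6 points ± 5.83. At 2 to 10, 10 to 50 and 50 to 200 kb the differences were -28.5, -21.9 and -12.8 points. At 200 kb or more, 1598 tiles averaged 76.0% in NT embryos and 83.5% in fibroblasts, a difference of -7.54 points ± 4.24. On the other autosomes the 5 classes differed by -30.3, -23.7, -16.7, -10.5 and -7.05 points. Within samples, chromosome 11 minus the other autosomes averaged -2.30 points ± 2.27 within 2 kb and -4.85 points ± 1.91 at 2 to 10 kb. It averaged -5.16 points ± 1.28 at 10 to 50 kb, -2.31 points ± 0.573 at 50 to 200 kb and -0.482 points ± 0.282 at 200 kb or more. Chromosome 11 was lower in 3 of 4 samples within 2 kb and in 4 of 4 in each other class. The median distance was 54800 bp on chromosome 11 and 137600 bp on the other autosomes.

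**Figure D5:**
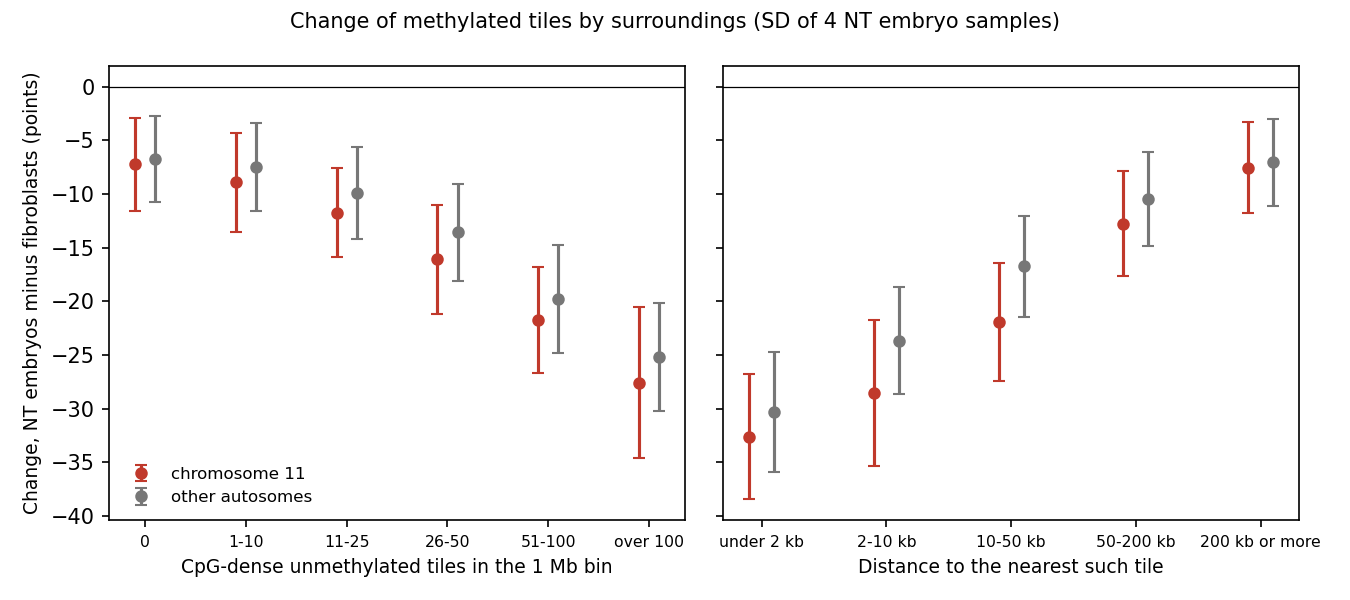
Difference between NT embryos and fibroblasts (points) of methylated tiles on chromosome 11 (red) and on the other autosomes (grey), by the number of island tiles in the 1 Mb bin (left) and the distance to the nearest island tile (right). Points are means and bars ± SD over 4 NT embryo samples. Both sets run from about -7 points in the poorest or farthest class to between -33 and -25 points in the richest or nearest one.

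By CpG density of the tile itself, the difference on chromosome 11 was lowest at intermediate density among classes of over 100 tiles. Tiles of density 3 to under 4 averaged 59.9% in NT embryos and 81.2% in fibroblasts, a difference of -21.3 points ± 5.03. The classes below it, under 2 and 2 to under 3, differed by -14.8 and -16.8 points. The classes above it, 4 to under 6, 6 to under 8 and 8 to under 12, differed by -18.6, -12.4 and -14.0 points. The remaining 7 tiles, of density 12 or more, differed by -21.7 points ± 22.4. On the other autosomes density 3 to under 4 was also the lowest class of over 100 tiles. It differed by -15.0 points there, against -12.1 to -9.46 points in the other such classes.

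Tiles of chromosome 11 below the 60% limit have less methylation to lose, so their differences in points are given by starting level and not ranked. Among 8702 tiles under 20% in fibroblasts the mean was 2.93% in NT embryos and 2.79% in fibroblasts, a difference of 0.140 points ± 0.342, within the spread between samples. At 20 to 40% in fibroblasts 990 tiles differed by -3.41 points ± 8.01, also within the spread, and at 40 to 60% 985 tiles differed by -11.8 points ± 6.88. Within the methylated tiles, those starting at 60 to 80% differed by -16.4 points ± 5.85 and those at 80% or more by -17.5 points ± 4.75 (SD, n = 4 NT embryo samples).

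Most methylated tiles of chromosome 11 kept part of their methylation. In NT embryos 22.1% of them were at 80% or more, 43.5% at 60 to 80%, 32.7% at 20 to 60% and 1.76% under 20%, while in fibroblasts 66.2% had been at 80% or more. On the other autosomes the shares in NT embryos were 29.8%, 51.9%, 17.4% and 0.810%. Chromosome 11 thus had the smaller shares in both classes at 60% or more and the larger shares in both classes below. The tile differences had a median of -12.9 points on chromosome 11, with a lower quartile of -27.7 and an upper quartile of -4.72 points, against a median of -8.88 points on the other autosomes. Differences of -20 points or beyond were found in 35.3% of the tiles of chromosome 11 and in 19.5% of those elsewhere. Higher in NT embryos by 20 points or more were 12 tiles of chromosome 11 (0.189%), against 0.164% elsewhere. A rise of that size is not possible from above 80%. Single tiles varied more between NT embryo samples than between fibroblast samples, with median SDs of 13.9 and 5.68 points on chromosome 11. On the other autosomes these were 10.2 and 5.48 points. NT embryo samples had fewer calls per tile and the 60% limit applies to fibroblasts alone, and the part of either in this was not tested.

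Tiles were also tested one by one in a quasi-binomial model of methylated and unmethylated calls with limma-moderated dispersion, fitted on all 279699 tiles of the series. A call needed a p under 0.05 after Benjamini-Hochberg adjustment and a gap of 20 points or more. Of the methylated tiles of chromosome 11, 853 (13.4%) were called lower in NT embryos, where the background was 4.41% of all tiles and 7.24% of methylated tiles on the other autosomes. Over all 17036 tested tiles of the chromosome, 1002 (5.88%) were called lower and 32 (0.188%) higher, where 0.173% of all tiles of the series were called higher. Of its methylated tiles 1 (0.0157%) was called higher, against 0.0397% of methylated tiles on the other autosomes. In 1511 methylated tiles (23.8%) every NT embryo sample lay below every fibroblast sample, against 11.9% of all tiles and 17.2% of methylated tiles on the other autosomes. Above every fibroblast sample were 48 methylated tiles (0.755%), against 0.874% of all tiles and 0.953% of methylated tiles on the other autosomes. Nothing is read from these counts, since the same contrast picked the chromosome. The number called lower, 1002, changed with the samples: leaving out NT embryo sample 1 or 2 gave 568 or 566, and leaving out fibroblast sample 1, 2, 3 or 4 gave 0, 100, 280 or 289. The number called higher, 32, became 19 with NT embryo sample 1 left out, 0 with fibroblast sample 1 left out and 2 with any other fibroblast sample left out.

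The tiles called lower with the largest differences were nearly emptied of methylation. Tile chr11:120782000-120782099, with 4 CpGs, was at 0, 16.3, 0 and 0% in NT embryo samples 1 to 4, against 97.0, 95.3, 94.6 and 90.8% in fibroblast samples 1 to 4. It lies in a bin with 229 island tiles, 12100 bp from the nearest of them, and rests on 36 to 300 calls per sample. Tile chr11:59316800-59316899, with 2 CpGs, was at 16, 5.88, 0 and 0% in NT embryo samples 1 to 4, against 91.7, 91.1, 95.1 and 92.0% in fibroblast samples 1 to 4. The nearest island tile was 2000 bp away. Tile chr11:97870800-97870899, with 3 CpGs, was at 18.2, 3.92, 1.20 and 0% in NT embryo samples 1 to 4, against 85.8, 72.1, 97.5 and 96.2% in fibroblast samples 1 to 4. Its nearest placed promoter, at 13.2 kb, is that of Cacnb1, a subunit of voltage-gated calcium channels.

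The next 5 tiles kept methylation in some NT embryo samples. Tile chr11:96921800-96921899, with 8 CpGs and 77 to 178 calls, was at 5.83, 0, 46.8 and 4.71% in NT embryo samples 1 to 4, against 93.8, 84.9, 92.2 and 90.5% in fibroblast samples 1 to 4. One embryo sample, the X1 sample 3, stood well above the others, and the nearest placed promoter, 9.82 kb away, is that of Osbpl7, an oxysterol-binding protein. Tile chr11:100262900-100262999 averaged 18.8% ± 28.9 in NT embryos and 96.4% ± 2.81 in fibroblasts, and lies 3.75 kb from the placed promoter of Jup, the junction protein plakoglobin. Tiles chr11:97162900-97162999, chr11:12483900-12483999 and chr11:119313900-119313999 averaged 15.0% ± 19.1, 16.3% ± 20.1 and 14.5% ± 19.5 in NT embryos and 92.1% ± 3.65, 93.2% ± 7.91 and 91.3% ± 12.1 in fibroblasts (SD, n = 4 each). Their lowest call numbers were 15, 11 and 10, so single values near 0% are imprecise. Tile 12483900 is an exception in place: its bin holds 6 island tiles, and the nearest is 118800 bp away.

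Called rises were few, and only 1 of them was a methylated tile. That tile, chr11:118380400-118380499, which was looked up after its call was seen, holds 1 CpG and was at 100, 100, 92.3 and 100% in NT embryo samples 1 to 4, against 70.6, 65.2, 60.5 and 64.7% in fibroblast samples 1 to 4. The 4 largest rises started from low levels. Tile chr11:5115900-5115999, with 3 CpGs, was at 67.9, 56.6, 91.7 and 79.3% in NT embryo samples 1 to 4, against 13.4, 22.4, 21.4 and 24.7% in fibroblast samples 1 to 4. Tiles chr11:83696500-83696599, chr11:78177600-78177699 and chr11:79668800-79668899 rose to 70.3% ± 19.8, 69.5% ± 22.2 and 65.7% ± 13.7 in NT embryos, against 16.4% ± 15.0, 18.998% ± 9.43 and 16.8% ± 11.2 in fibroblasts (SD, n = 4 each). The nearest placed promoters, of Dusp14, Unc119 and Suz12, were 20.8 to 185.4 kb away.

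Most of the 853 methylated tiles called lower stood alone. Joined where they lay within 1000 bp, they formed 731 runs. Of these runs 634 (86.7%) were single tiles and 17 held 3 or more. How often any measured tile lies alone was not computed, so nothing is read from this share. The longest, chr11:60001400-60003399, joined 6 called tiles that averaged 28.2, 39.5, 58.4 and 39.6% in NT embryo samples 1 to 4, against 81.1, 82.0, 89.6 and 82.2% in fibroblast samples 1 to 4. The nearest placed promoter, 21.7 kb off, is that of Srebf1, a regulator of lipid synthesis genes. The run chr11:117214100-117215199 joined 5 tiles and averaged 28.4% ± 10.6 in NT embryos and 78.7% ± 3.05 in fibroblasts, 21.1 kb from the placed promoter of Septin9, a cytoskeletal GTPase. The run chr11:113651500-113652199, also of 5 tiles, averaged 58.6% ± 8.60 in NT embryos and 87.6% ± 2.61 in fibroblasts (SD, n = 4 each).

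At the 60% limit, tiles on either side differed in no common way. The 3 just inside, chr11:98832500-98832599, chr11:60942900-60942999 and chr11:50605600-50605699, averaged 51.6, 36.4 and 0.595% in NT embryos and 60.01, 60.01 and 60.04% in fibroblasts. The 3 just outside, chr11:97278500-97278599, chr11:113658900-113658999 and chr11:68288900-68288999, averaged 58.7, 51.6 and 28.8% in NT embryos and 59.99, 59.98 and 59.98% in fibroblasts.

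Placed promoters themselves were almost all unmethylated at both stages. A place needs at least 6 measured CpGs, so promoters with few CpGs are left out here. Of 721 placed windows of 662 genes with measured tiles, 704 were under 20% in fibroblasts, and these had a median of 0.685% in NT embryos and 0.879% in fibroblasts. None of the 704 was higher in NT embryos by 20 points or more, and a fall of that size was not possible from these levels. Of 50 genes on lists for the chromosome (Hoxb, type I keratin, fibroblast, growth and imprinted, transcription factor and Wnt genes), 16 had a placed and measured promoter, in 17 windows. Of these, 15 windows were under 20% in fibroblasts and the median difference was -0.204 points. All 5 genes of the Wnt list (Wnt3, Wnt3a, Wnt9a, Wnt9b and Axin2) were measured, at 0.3996 to 2.47% in NT embryos and 0.559 to 2.11% in fibroblasts. The 6 measured genes of the 17 on the transcription factor list (Ikzf1, Lhx1, Rara, Stat3, Stat5a and Stat5b) were at 0.274 to 1.57% in NT embryos and 0.484 to 1.85% in fibroblasts. Of 4 fibroblast genes, Timp2 was measured, at 1.10% in NT embryos and 1.51% in fibroblasts. No promoter of the 10 Hoxb or 9 type I keratin genes was both placed and measured, so these are not described here.

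The 12 genes with methylated promoter tiles included 16 such tiles, with differences from -54.1 to 7.23 points. Coro6 encodes a member of the coronin family of actin regulators, and its tile chr11:77277400-77277499, with 6 CpGs, was at 14.8, 39.0, 72.7 and 2.63% in NT embryo samples 1 to 4, against 84.8, 85.5, 87.4 and 87.8% in fibroblast samples 1 to 4. All NT embryo samples were lower, to very different degrees, while a second placed window of Coro6 averaged 0.573% in NT embryos and 0.783% in fibroblasts. Hormad2 encodes a protein of the meiotic chromosome axis, and its tile chr11:4341000-4341099, with 10 CpGs, was at 63.3, 29.4, 0 and 8.96% in NT embryo samples 1 to 4, against 59.6, 59.1, 65.1 and 70.7% in fibroblast samples 1 to 4. NT embryo sample 1 lay among the fibroblast values and the other three below them. Sox30 encodes a transcription factor of male germ cells, and its tile chr11:45793500-45793599, with 8 CpGs, was at 21.5, 15.7, 63.0 and 52.3% in NT embryo samples 1 to 4, against 72.2, 66.7, 59.9 and 63.9% in fibroblast samples 1 to 4. Here the BDF1-CAST embryos were low and an X1 embryo sample lay within the fibroblast range. This tile is 1 of 4 measured in the Sox30 window and the only one at 60% or more in fibroblasts. The whole window averaged 25.1% ± 10.8 in NT embryos and 28.7% ± 4.61 in fibroblasts, a difference of -3.57 points, within the spread between samples.

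Other promoters hold more CpGs. Hsf5 encodes a member of the heat shock factor family needed in male meiosis, and its tile chr11:87430700-87430799, with 11 CpGs, was at 61.5, 65.4, 72.7 and 82.1% in NT embryo samples 1 to 4, against 68.4, 76.0, 77.5 and 80% in fibroblast samples 1 to 4. The groups overlapped, with a difference of -5.04 points. This tile lies past the end of the bases printed for Hsf5. The other methylated tile of Hsf5, chr11:87430600-87430699, differed by -13.2 points. At 4933428G20Rik, tile chr11:97361700-97361799, with 19 CpGs, was at 36.8, 32.8, 98.1 and 70.5% in NT embryo samples 1 to 4, against 73.5, 69.5, 77.7 and 81.8% in fibroblast samples 1 to 4. The difference was -16.1 points, and the spread among embryo samples was larger than that. The other methylated tile of this gene, chr11:97361900-97361999, differed by -4.88 points ± 37.8 (SD, n = 4 NT embryo samples). Both lie in the bin at 97 Mb, whose mean difference was among the lowest. Among the others, the single measured tiles of Gm12236 and of Abca13, an ABC transporter gene, differed by -33.9 and -24.5 points. At Gm12111 the methylated tile differed by -50.1 points and the whole window by -23.7 points. At 4933414I15Rik the 3 methylated tiles differed by -47.8, -3.29 and 7.23 points and the window by -9.25 points. The tiles of Gm51871, Gm33250 and Gm30786 differed by -13.4, -9.82 and -5.93 points.

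Strain did not enter the choice of the chromosome and was tested, with the limit that the strain labels cannot be told apart from differences in coverage between their libraries. X1 libraries covered 92932 to 108281 CpGs of chromosome 11 and BDF1-CAST libraries 120285 to 129359. Methylated tiles of chromosome 11 were higher in X1 by 5.69 points, with 8.28 points among NT embryos and 3.11 points among fibroblasts. The two-sided exact permutation test within stages gave p = 0.0556, the smallest that its 36 assignments can give, so the design cannot pass 0.05. Each X1 sample was above each BDF1-CAST sample of its stage. Relative to matched autosomes the X1 samples were higher than the BDF1-CAST samples by 0.516 points (exact permutation p = 0.278). Adjusted over the 2 tests by Benjamini-Hochberg, the exact permutation p-values were 0.111 and 0.278.

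Tile by tile, the strain term called 2 tiles on chromosome 11, against a background of 0.0179% of all tiles, and 1 of them was a methylated tile, against 0.0105% of methylated tiles on the other autosomes. Tile chr11:12697900-12697999, with 3 CpGs, was at 79.2, 49.3, 47.3 and 48.9% in X1 (NT embryo samples 3 and 4, fibroblast samples 3 and 4), against 88.8, 88.1, 88.4 and 90.2% in BDF1-CAST (NT embryo samples 1 and 2, fibroblast samples 1 and 2). The difference was -32.7 points, and it held in each stage (adjusted p = 0.0257 in the limma-moderated model, 48 to 604 calls). Tile chr11:48639700-48639799, an island tile outside the methylated set, was at 24.2, 17.0, 26.5 and 20.7% in X1 and at 0% in each of the 4 BDF1-CAST samples (adjusted p = 0.0281 in the same limma-moderated model). Without any 1 sample both lost the call, except the first without NT embryo sample 3, with limma-moderated adjusted p from 0.0278 to 0.296 and from 0.0767 to 0.296. The second also lost it without library 1a (limma-moderated adjusted p = 0.0531). On arcsine square root levels limma gave adjusted p of 0.188 and 0.0855, so neither was called. Whether the strains differ in the DNA sequence of these tiles was not tested. At an unadjusted p under 0.05, 853 methylated tiles (13.4%) differed by strain on chromosome 11 and 12.4% on the other autosomes.

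The stage difference was not shown to depend on strain at any tile. The product of stage and strain called 0 tiles on chromosome 11 and 0% of all tiles in the quasi-binomial model, with a smallest adjusted p of 0.253 (limma-moderated) on the chromosome. At an unadjusted p under 0.05 there were 663 methylated tiles (10.4%) of chromosome 11, against 8.68% of all tiles, and limma alone, on arcsine square root levels, gave 0 calls as well. With 2 samples in each stage and strain, a missing call does not show that the strains are alike.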

How the data were processed

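For each library the authors deposited, per CpG, a count of calls seen and a count of methylated calls, by their own file description. Per the submitters' processing notes the build is mm9, while the sources used here give no aligner or caller. The CpG density of a tile is a score computed and deposited by the authors. The table's other 26 columns were not used.

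Calls were summed in 100 bp tiles, with at least 10 calls in each of 8 samples, and libraries 1 and 1a of fibroblast sample 1 were counted as 1 sample. Each tile weighs equally in a mean. Autosomal tiles were weighted to chromosome 11 in classes of density and fibroblast level. Quasi-binomial logistic models with stage and strain were fitted per tile in Python 3.11.15 with numpy 2.4.6, and their dispersion was moderated with limma 3.58.1 in R 4.3.3. They were tested on simulated data. Strain means were compared by exact permutation, and correlations were computed with scipy 1.17.1. P-values measure only how these samples spread, which may be technical.

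The chromosome, its members and the lists were chosen with earlier results of these data known. Named were the 6 lowest and 6 highest bins, the 8 largest called falls, the 4 largest called rises, the called strain tiles, the 3 longest runs and the 3 tiles on each side of the limit. Genes are named through placed promoters, since no mm9 annotation was used.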

Additional observations from a re-analysis of the deposited data

Results flagged for a closer look

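In groups of 4 samples, 8 of 116 examined groups had 1 sample set apart from the other three. The cut is meant to pick 1 in 20, or 5.8, of independent groups. Many of these groups share tiles or were picked by their values, so nothing is read from the count. In 4 of the 8 groups the sample was an NT embryo one. Tile chr11:120782000-120782099 was at 16.3% in NT embryo sample 2 and at 0% in the others. Tile chr11:96921800-96921899 was at 46.8% in NT embryo sample 3, against at most 5.83% in the others. Tile chr11:83696500-83696599 reached 100% in NT embryo sample 3, against 61.1% or less in the others. The promoter tile of Hsf5 at chr11:87430600-87430699 was at 38.7% in NT embryo sample 4, against 78.6% or more in the others.

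Among fibroblasts, sample 3 stood above the others in the bin at 59 Mb with 86.4%, in the run starting at chr11 position 60001400 with 89.6% and in the run starting at 113651500 with 91.5%. Sample 4 was the lowest in tile chr11:97162900-97162999 with 86.7%.

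At 5 tiles every NT embryo sample of one strain lay on the opposite side of its fibroblast mean from those of the other strain. The difference between NT embryos and fibroblasts in X1 minus that in BDF1-CAST was 51.7 points at chr11:97361900-97361999 over 4933428G20Rik, where it was 20.9 points in X1 and -30.7 points in BDF1-CAST. It was 47.1 points at chr11:50757200-50757299 and 35.6 points at chr11:50757400-50757499, both over 4933414I15Rik. At chr11:12697900-12697999, the tile called between strains, it was 17.0 points. This came mostly from NT embryo sample 3, at 79.2%. NT embryo sample 4 was at 49.3%, near the X1 fibroblast mean of 48.1%, and BDF1-CAST differed by only -0.856 points. At the Hsf5 tile chr11:87430600-87430699 the X1 minus BDF1-CAST value was -39.2 points, with -32.8 points in X1 and 6.44 points in BDF1-CAST. These tiles were singled out by their values, and the product of stage and strain called none of them in the model across all tiles.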

How the results depend on the processing

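The difference of chromosome 11 between NT embryos and fibroblasts stayed between -19.9 and -14.5 points under 16 alternatives, and the strain differences kept their direction. Relative to matched autosomes it was -4.32 points at 20 calls per tile, -3.80 without the distal 20 Mb, -1.89 with island tiles per Mb, -2.95 with their distance and -1.65 with both matched, and -5.86 to -5.06 with single samples left out. Tiles called lower numbered 1585 at 5 calls, 439 at 20 calls, 555 where limma was run on arcsine square root levels, and 0 to 1249 with single samples left out. Tiles called higher numbered 21 without the strain term, 10 with limma, 12 at 20 calls, and 0 to 27 with single samples left out. Strain calls numbered 0 with limma, 4 at 20 calls, 1 without library 1a, and 0 to 1 with single samples left out. The cause was not tested.

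Over bins, the Spearman correlation with CpG density was 0.162 at 5 calls, 0.189 at 20 calls, 0.112 with tiles at 80% or more, 0.131 in 500 kb bins and 0.0367 to 0.0977 with single samples left out. The Spearman correlation with island tiles was -0.805 at 20 calls, -0.807 weighted by calls, -0.861 with tiles at 80% or more, -0.863 in 2 Mb bins and -0.788 with all dense tiles counted, and -0.848 to -0.824 with single samples left out. Of 281 values of named bins and tiles, 260 held, 3 moved beyond the spread, 18 strain values lost their call and none reversed. A stage difference held if it moved by less than the SD over NT embryo samples, which is wide at some tiles. Whether tiles kept their stage call was not scored. Tiles lacking the calls for a setting were not counted, and the level of a tile does not depend on the minimum of calls. Matching on surroundings and all alternatives for island tiles were added once the data had been seen.

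Whether same-numbered samples share more than a number is not given in the sources used here. Their deviations correlated at -0.0278 in BDF1-CAST and 0.0122 in X1 over all tiles. These values cannot decide it, since each stage and strain has 2 samples. With the number as a replicate block, 0 tiles of chromosome 11 were called lower and 0 higher, with 3815 at an unadjusted p under 0.05. Tiles with few calls, 29 to 40 at the median in NT embryos, limit single levels, and intervals from them would cover counting error only.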

Other observations

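Among placed promoters outside the methylated set, those of Zrsr1 and 1 of 2 windows of Commd1 stood at intermediate levels in fibroblasts. Zrsr1 is an imprinted retrogene that lies within an intron of Commd1. Its window was at 78.8, 64.4, 21.1 and 50.4% in NT embryo samples 1 to 4, against 36.1, 36.7, 41.4 and 47.8% in fibroblast samples 1 to 4. The embryo samples lay on both sides of the fibroblast range, with means of 53.7% ± 24.6 in NT embryos and 40.5% ± 5.42 in fibroblasts (SD, n = 4 each). That window of Commd1 averaged 22.6% ± 8.40 in NT embryos and 37.1% ± 4.67 in fibroblasts, and the values of the stages did not overlap. The other window of Commd1 averaged 1.88% ± 3.45 in NT embryos and 3.37% ± 3.23 in fibroblasts, and its values overlapped.

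Hes7, a gene of the segmentation clock, had a window at 0, 7.69, 0 and 0% in NT embryo samples 1 to 4, against 17.2, 17.4, 11.4 and 21.8% in fibroblast samples 1 to 4. Gm32273 averaged 11.96% ± 8.74 in NT embryos and 42.9% ± 7.38 in fibroblasts, and Gm38483 averaged 16.1% ± 7.01 in NT embryos and 5.68% ± 1.401 in fibroblasts. These windows were picked after their values were seen and carry no test.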
